A study of Mus musculus with 12 samples.

Results

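Brown fat lacking Cpt2 in adipocytes was compared with control brown fat 3 h after injection of CL316243, a compound that activates the β3-adrenergic receptor and through it heat production in this tissue. The comparison rests on 6 of the 12 arrays of the series, 1 per mouse: 3 Cpt2 knockout arrays (KO) and 3 control arrays (WT), chosen by genotype and injection. All mice were C57BL/6 females of 12 weeks that had been kept at 30 °C for 2 weeks. Knockouts carried floxed Cpt2 alleles and Adiponectin-Cre, a recombinase driven by the promoter of an adipocyte hormone, so white adipocytes lose the gene too, while other cells of the tissue keep it. Controls, which the labels call wild type, carried the floxed alleles without Cre. Both groups received 10 mg/kg CL316243 by intraperitoneal injection, and interscapular brown adipose tissue was collected. Another 3 KO and 3 WT mice, handled alike but injected with saline, serve as the unstimulated comparison. The labels call the 3 mice of a group biological replicates. Gene values are log2 array signals, 1 row per gene, and differences are KO minus WT on the log2 scale with the standard error of the fit.

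Brown adipocytes burn fatty acids to make heat. Catecholamines raise cAMP through the β3 receptor, which releases fatty acids from lipid droplets and at the same time switches on genes such as the coactivator Ppargc1a and the uncoupling protein Ucp1. Long-chain fatty acids enter mitochondria as carnitine esters: Cpt1 enzymes make the ester on the outer membrane, Slc25a20 carries it across the inner membrane, and Cpt2 turns it back into acyl-CoA for β-oxidation. Fatty acids are also ligands of PPAR nuclear receptors, which drive many genes of fat oxidation.

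A total of 20259 genes had a row of their own, and 15896 were tested. Limma's moderated test, with Benjamini-Hochberg adjustment over all tested genes, called 4685 of them (29.5%) at an adjusted p under 0.05. Of these, 2329 (14.7% of all tested) were higher and 2356 (14.8%) were lower in KO than in WT tissue. Each list count after CL316243 given below is to be read beside these shares. Calls of at least 2-fold numbered 363 higher (2.28%) and 199 lower (1.25%). The share of calls that were higher was 49.7% on the deposited scale, 35.7% after centring each array on its median and 45.4% after quantile normalization, so the balance of rises and falls depends on scaling. The median difference of all tested genes was -0.04, and it was -0.10 after median-centring. Values correlated at r = 0.971 to 0.984 among the KO arrays, at 0.967 to 0.981 among the WT arrays and at 0.902 to 0.944 between the groups. The 25th percentile of an array's named genes, used below as an expression floor, lay between log2 signals of 5.27 and 5.58.

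Markers of other cell types differed between the groups too. Macrophage markers had a mean log2 signal per array of 8.50 to 8.70 in KO tissue, against 7.71 to 7.85 in WT tissue, and glandular epithelium markers one of 6.28 to 6.62 in KO tissue, against 5.47 to 5.79 in WT tissue. Skeletal muscle markers were at 10.22, 8.53 and 10.26 in the KO arrays, against 7.27, 9.16 and 8.09 in the WT arrays, so these groups overlapped. The values are from whole tissue, where fewer cells of a type and less RNA per cell cannot be told apart.

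**Figure D1:**
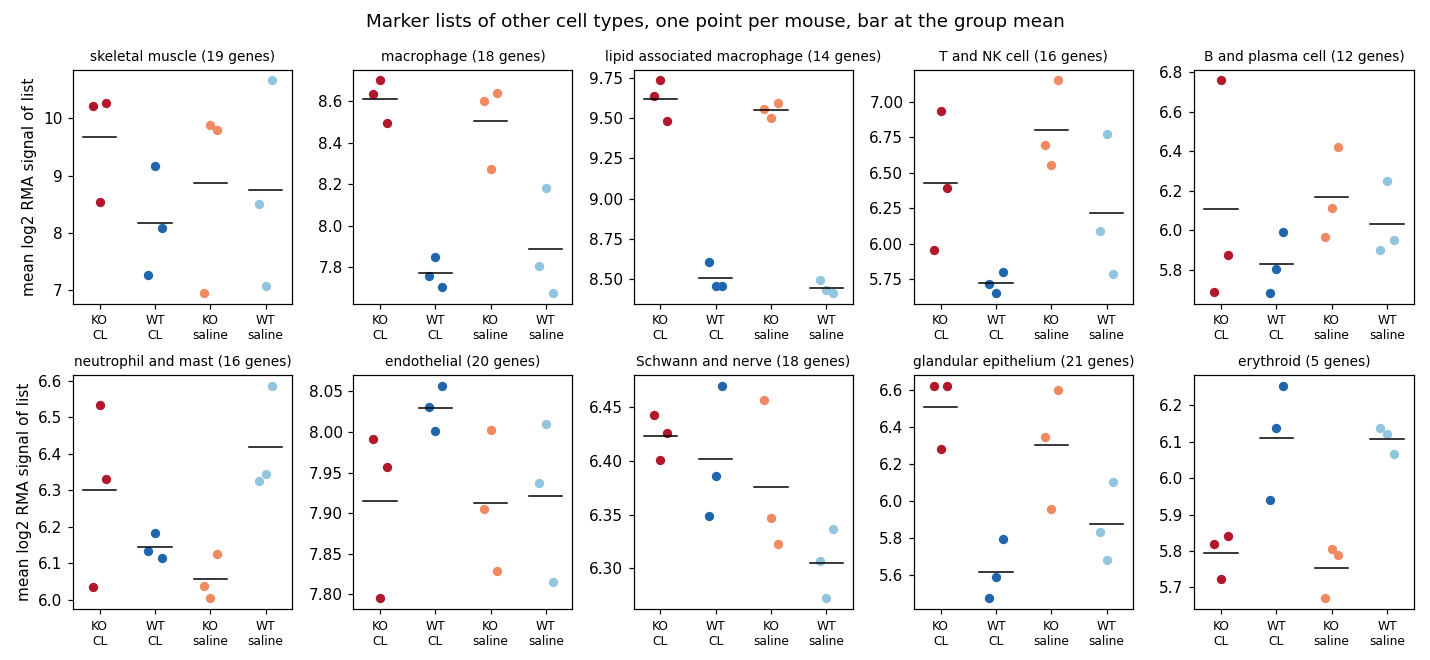
Mean log2 signal of the genes of each marker list (vertical axis) in each of the 12 arrays, with 1 point per mouse and a bar at the group mean; KO CL316243 is at the left, next to WT CL316243. The macrophage, lipid-associated macrophage, T and NK cell and glandular epithelium lists lie higher in all 3 KO CL316243 arrays than in any WT CL316243 array. The endothelial and erythroid lists lie lower, and the skeletal muscle list overlaps.

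Cpt2 itself was at 7.91, 7.87 and 7.92 in the KO arrays, against 8.60, 8.83 and 8.52 in the WT arrays. The groups did not overlap, and the difference was -0.75 ± 0.10 (limma adjusted p = 0.000386), which is a signal 1.69-fold higher in WT tissue. Whether the row's probes lie inside the floxed stretch is not given in the sources used here, and vessel, immune and stromal cells still carry intact Cpt2, so this value is no measure of deletion efficiency. Of 12 tested genes of the carnitine shuttle, 5 were lower and 1 was higher. Lower were the carrier Slc25a20 (-1.58 ± 0.24), the carnitine transporter Slc22a5 (-1.16 ± 0.22), carnitine acetyltransferase Crat (-1.09 ± 0.13) and Acacb (-1.21 ± 0.17), whose product malonyl-CoA inhibits Cpt1. The exception was Cpt1a, the liver-type enzyme upstream of Cpt2, at 7.96, 7.78 and 7.71 in KO tissue, against 7.15, 7.26 and 7.29 in WT tissue (0.59 ± 0.09, limma adjusted p = 0.000853).

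Several genes of stimulated brown fat were lower. Ppargc1a, the coactivator that drives mitochondrial and thermogenic genes, stood at 9.76, 9.84 and 9.84 in KO tissue, against 11.57, 11.53 and 11.27 in WT tissue. The lowest WT array was more than 1 log2 unit above the highest KO array, and the signal was 3.12-fold higher in WT tissue (-1.64 ± 0.24, limma adjusted p = 0.000757). Dio2, the deiodinase that makes active thyroid hormone inside brown adipocytes, reached 7.80, 8.13 and 8.63 in KO tissue, against 10.42, 10.69 and 10.68 in WT tissue (-2.41 ± 0.48, adjusted p = 0.00398). The fatty acid elongase Elovl3, a marker of recruited brown fat, had 7.48, 7.03 and 7.41 in KO tissue, against 9.81, 10.14 and 10.70 in WT tissue (-2.91 ± 0.24, adjusted p = 4.72e-05). Again no KO array reached a WT array. The fatty acid transporter and acyl-CoA synthetase Slc27a2 fell by 3.02 ± 0.36 (adjusted p = 0.000268), or by 1.97 when the mean of its rows was taken.

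Prdm16, the transcription factor that holds brown adipocytes in their lineage, was at 7.29, 7.07 and 6.91 in KO tissue, against 9.43, 9.23 and 9.51 in WT tissue, a 4.94-fold higher signal in WT tissue (-2.30 ± 0.11, limma adjusted p = 2.16e-06). Of 23 tested genes of brown adipocyte identity, 12 were lower and 2 were higher, and the median difference was -0.38. Others that fell include the proton channel Otop1 (-2.54 ± 0.25), the coenzyme A synthesis enzyme Pank1 (-2.45 ± 0.24), the droplet proteins Cidea (-1.89 ± 0.26) and Plin5 (-1.84 ± 0.27) and the brown-fat subunit of cytochrome c oxidase Cox8b (-1.76 ± 0.38). Of 17 thermogenic effectors, 7 were lower and 2 higher. Ucp1 itself had 10.69, 11.70 and 11.90 in KO tissue, against 13.59, 13.68 and 13.60 in WT tissue. The groups did not overlap, yet the difference of -2.19 ± 0.76 did not pass (limma adjusted p = 0.0509), since the spread in this fit is shared with the saline arrays, where 1 KO array was at 8.39. With only the 6 CL316243 arrays fitted the adjusted p of Ucp1 was 0.00267, and without that KO saline array 1 it was 0.00116. It was 0.159 without KO array 1 and 0.0669 to 0.107 without any other 1 of the CL316243 arrays. With robust moderation it was 0.0773, and after quantile normalization 0.0728.

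Among the regulators that work with Ppargc1a, the orphan nuclear receptors Esrra (-0.94 ± 0.11) and Esrrg (-1.18 ± 0.17) fell, and so did the coactivator Ppargc1b (-1.18 ± 0.30, limma adjusted p = 0.0136, and 0.0534 without KO array 2). Of the 10 tested genes of this list 5 were lower and none was higher. Lncbate10, a long non-coding RNA of brown fat, was at 6.55, 6.52 and 6.61 in KO tissue, against 9.21, 9.66 and 9.09 in WT tissue (-2.76 ± 0.42). The transcript 9130214F15Rik fell by 3.39 ± 0.35, or by 2.77 with the mean of its rows, with 2 of 3 KO arrays below the floor, so the size is uncertain.

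**Figure D2:**
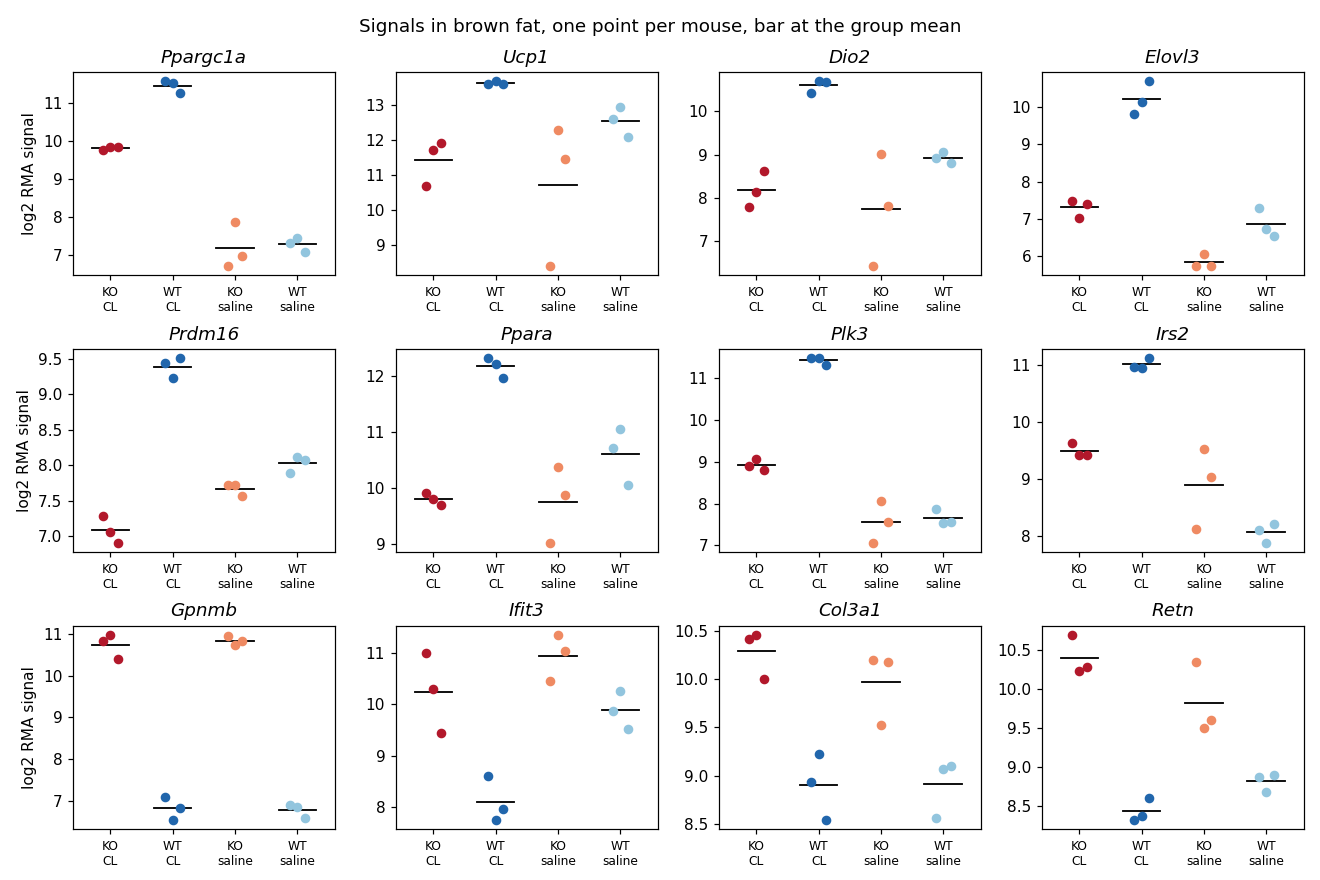
Log2 signal (vertical axis, scaled for each gene) of 12 genes in each of the 12 arrays, with 1 point per mouse and a bar at the group mean, KO left of WT for each injection. For every gene shown the 3 KO CL316243 points lie apart from the 3 WT CL316243 points, below them for Ppargc1a to Irs2 and above them for Gpnmb, Ifit3, Col3a1 and Retn; Ucp1 varies most among the KO saline mice.

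Ppara and Pparg were lower, and so were some of their targets. Ppara, the fatty acid receptor that drives oxidation genes, was at 9.92, 9.80 and 9.69 in KO tissue, against 12.33, 12.22 and 11.98 in WT tissue (-2.37 ± 0.31, limma adjusted p = 0.000445), and Pparg, the master receptor of adipocyte differentiation, fell by 0.65 ± 0.11. Of 19 tested genes of this list, 10 were lower and 2 higher, with a median of -0.65. Ehhadh, the bifunctional enzyme of peroxisomal β-oxidation, had 6.80, 6.80 and 6.68 in KO tissue, against 8.28, 8.67 and 8.76 in WT tissue (-1.81 ± 0.18). The acyl-CoA thioesterases Acot2 (-1.54 ± 0.13), Acot3 (-1.63 ± 0.15) and Acot4 (-1.33 ± 0.17) fell as well, although these paralogs could share probe signal. Fgf21, a hormone induced by PPARα and by stress, was slightly lower (-0.46 ± 0.11, adjusted p = 0.00863). Pdk4, the kinase that shuts pyruvate out of mitochondria, was at 12.18, 12.18 and 12.27 in KO tissue, against 13.18, 13.27 and 13.21 in WT tissue. It did not pass (limma adjusted p = 0.0843), but did with only these 6 arrays fitted (0.000613), without KO saline array 1 (0.000595) and without KO saline array 2 (0.0321). Its limma adjusted p was 0.126 to 0.170 without any 1 of the CL316243 arrays, and 0.122 after quantile normalization.

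Peroxisomal oxidation genes were lower in 11 of 21 cases and higher in 2, with 7 lower when WT array 2 was left out. The peroxisomal fatty acid importers diverged: Abcd3 fell by 1.08 ± 0.15, whereas its relative Abcd2 rose by 1.43 ± 0.24, with 11.71, 11.42 and 11.23 in KO tissue, against 9.51, 10.35 and 10.23 in WT tissue. Fatty acid uptake and activation gave 7 lower (41.2%) and 3 higher (17.6%) among 17. The higher count is near the share of all tested genes, 14.7%, and the lower share of all was 14.8%. Mfsd2a, a transporter of lysophospholipids, had 7.15, 6.61 and 7.35 in KO tissue, against 9.32, 9.01 and 9.12 in WT tissue (-2.11 ± 0.22, limma adjusted p = 0.000139). Among 20 genes of lipolysis and the lipid droplet, 7 were lower and 2 higher. The glycerol channel Aqp7 (-1.27 ± 0.12) and the droplet protein Cideb (-1.22 ± 0.28) fell. Pnpla2, the first lipase of triglyceride breakdown, overlapped between the groups (11.08, 10.78 and 10.74 in KO tissue, 10.93, 11.15 and 11.00 in WT tissue) and was not called (adjusted p = 0.312).

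The transcripts that cAMP signalling induces within hours were lower in part. Plk3, a stress-induced kinase, was at 8.88, 9.06 and 8.81 in KO tissue, against 11.48, 11.47 and 11.32 in WT tissue, 5.67-fold higher in WT tissue (-2.50 ± 0.20, limma adjusted p = 4.35e-05). The orphan receptor Nr4a2 had 7.22, 7.51 and 7.56 in KO tissue, against 9.48, 9.26 and 9.31 in WT tissue (-1.92 ± 0.21, adjusted p = 0.000182). Irs2, the insulin receptor adaptor, fell by 1.52 ± 0.27 and the stress factor Atf3 by 1.12 ± 0.18. Of 38 tested genes of this list 15 were lower and 2 higher, with a median of -0.32, but only 8 were lower without KO array 2. Egr2 went the other way, with 9.14, 9.61 and 9.41 in KO tissue, against 8.24, 7.83 and 7.81 in WT tissue (1.42 ± 0.33, adjusted p = 0.00885). Nr4a3 was lower without overlap (8.96, 8.83 and 8.95 in KO tissue, 9.72, 9.83 and 10.08 in WT tissue) and was not called (limma adjusted p = 0.0621). It was called with only these 6 arrays (0.00181), after median-centring (0.0461) and without KO saline array 1 (0.00968) or 2 (0.00589). Without any 1 of the CL316243 arrays it was not called (limma adjusted p from 0.0814 to 0.158).

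The promoters of Dio2 and Nr4a2 are shown because both genes are cAMP-induced and both were strongly reduced. Each line gives the 250 bases before the transcription start, from RefSeq on build GRCm38.p6, 5′ to 3′ on the strand of the gene. Capitals in Dio2 (chr12:90739039-90739288, minus strand) mark the full cAMP response element TGACGTCA, and those in Nr4a2 (chr2:57124004-57124253, minus strand) mark its first 5 letters TGACG on either strand.
Dio2: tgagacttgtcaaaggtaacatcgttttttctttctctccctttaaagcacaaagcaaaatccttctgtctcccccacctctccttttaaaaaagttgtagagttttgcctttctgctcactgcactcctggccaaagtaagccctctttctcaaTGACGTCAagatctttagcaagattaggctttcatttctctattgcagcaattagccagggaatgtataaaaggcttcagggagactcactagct
Nr4a2: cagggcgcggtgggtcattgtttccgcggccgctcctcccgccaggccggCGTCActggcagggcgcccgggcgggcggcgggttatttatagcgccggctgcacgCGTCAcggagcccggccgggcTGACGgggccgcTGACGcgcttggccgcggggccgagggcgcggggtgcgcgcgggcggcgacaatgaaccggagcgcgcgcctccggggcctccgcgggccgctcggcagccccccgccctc
Dio2 holds 1 full element and Nr4a2 holds 4 of the shorter runs. On both strands of windows from 250 bases before to 50 after the start, TGACGTCA was found in 3 of the 30 cAMP-list genes in the promoter table (10.0%), against 2.03% of all 27025 genes there, and TGACG in 19 of 30 (63.3%), against 23.05%. TGACG was also above that share in other lists searched, with 8 of 16 heat shock promoters (50%), 8 of 17 PPAR target promoters (47.1%), 10 of 27 integrated stress response promoters (37.0%), 12 of 34 respiratory chain promoters (35.3%) and 7 of 23 interferon promoters (30.4%), so it is not particular to the cAMP list. The full element also stood in 2 of 34 respiratory chain promoters (5.88%) and 1 of 27 integrated stress response promoters (3.70%). The shorter motif is part of the longer one, and a match describes letters, not a bound site. A nuclear receptor direct repeat, also searched, stood in 0 of 17 PPAR target promoters, against 0.0481% of all. An ERR element stood in 0 of 17 β-oxidation and 1 of 34 respiratory chain promoters (2.94%), against 0.466% of all.

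Adcy3, an adenylyl cyclase that makes cAMP, had 8.02, 8.15 and 7.90 in KO tissue, against 9.79, 9.91 and 9.92 in WT tissue, 3.59-fold higher in WT tissue (-1.84 ± 0.10, limma adjusted p = 2.54e-06). The kinase anchor Akap1 (-1.27 ± 0.17) and the stimulatory G protein Gnas (-0.74 ± 0.12) fell too. Of 25 adrenergic signalling genes, 11 were lower (44%) and 4 higher (16%), against 14.8% and 14.7% of all tested genes. The higher count is thus near the share of all genes. Leaving out KO array 2 left 6 lower, leaving out KO array 3 or WT array 2 left 7, and 2 stayed higher without KO array 1, KO array 3, WT array 1 or WT array 2. The β3 receptor gene Adrb3 and the lipase gene Lipe had no row of their own and were not tested.

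Most heat shock and cytosolic chaperone genes were lower. Hsph1, which reloads Hsp70 chaperones, was at 9.14, 9.65 and 9.38 in KO tissue, against 10.94, 10.94 and 10.49 in WT tissue, 2.64-fold higher in WT tissue (-1.40 ± 0.16, limma adjusted p = 0.000209). Its relative Hspa4l had 7.34, 7.55 and 7.25 in KO tissue, against 9.0, 9.09 and 8.11 in WT tissue (-1.36 ± 0.20). Of 19 tested heat shock genes 13 were lower and none was higher, with a median of -0.81. Hspa1a, the inducible Hsp70, whose near-identical neighbour may share its probes, was at 7.22, 8.47 and 8.36 in KO tissue, against 9.90, 10.28 and 9.0 in WT tissue. Its call (-1.71 ± 0.46, adjusted p = 0.0172) ended without KO array 1 (adjusted p = 0.0685) or WT array 2 (0.0651). The letters of a heat shock element (GAA, any 2 bases, TTC, any 2 bases, GAA, on either strand) stood in 2 of 16 promoters of this list (12.5%), against 0.662% of all. They also stood in 1 of 17 PPAR target promoters (5.88%) and 1 of 23 interferon promoters (4.35%).

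Most genes of mitochondrial energy metabolism were lower. Of 43 tested genes of the respiratory chain and ATP synthase, 42 were lower and none was higher, with a median of -0.75 and a range of -1.76 to -0.10. The one without a call was the heme A synthase Cox15, named here after its value was seen. Subunits of complexes III and IV illustrate the size: Cyc1 was at 8.44, 8.47 and 8.42 in KO tissue, against 9.63, 9.53 and 9.54 in WT tissue (-1.12 ± 0.15), Uqcrfs1 fell by 1.06 ± 0.20, and Cox5b fell by 1.10 ± 0.17. With the arrays median-centred or quantile-normalized again, 42 of the list's genes were lower as well. The skeletal muscle markers, which overlapped between the groups, had their highest levels in KO arrays 1 and 3 and WT array 2, and their part in the mitochondrial values was not tested.

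Of 18 genes of the tricarboxylic acid cycle, 16 were lower and 1 was higher, with a median of -0.77. Suclg1, a subunit of succinyl-CoA ligase, had 8.32, 8.51 and 8.59 in KO tissue, against 9.92, 9.95 and 9.68 in WT tissue, 2.60-fold higher in WT tissue (-1.38 ± 0.19, limma adjusted p = 0.000532). Its partner Sucla2 (-1.31 ± 0.20), the isocitrate dehydrogenase subunit Idh3a (-1.08 ± 0.20) and fumarase Fh1 (-0.97 ± 0.14) fell as well. The one higher gene was pyruvate carboxylase Pcx (0.64), which feeds the cycle rather than turning it, and which is named after its value was seen.

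Mitochondrial β-oxidation, the pathway that Cpt2 supplies, had 15 of 21 genes lower and 1 higher, with a median of -0.70. Acadvl, the first dehydrogenase for long chains, was at 9.31, 9.36 and 9.37 in KO tissue, against 10.96, 10.86 and 10.91 in WT tissue, 2.96-fold higher in WT tissue (-1.56 ± 0.21, limma adjusted p = 0.000459). The thiolase Acaa2 (-1.50 ± 0.20), the isomerase Eci1 (-1.22 ± 0.19) and Etfdh, which passes electrons from the acyl-CoA dehydrogenases to ubiquinone (-1.47 ± 0.19), had drops of like size. Acadm, the medium-chain dehydrogenase, fell by 0.65 ± 0.11. Of 35 genes of mitochondrial translation, import and dynamics, 23 were lower and none was higher, with a median of -0.37. Mrpl34 of the mitochondrial ribosome fell by 1.45 ± 0.16, the matrix chaperones Hspd1 and Hspa9 by 0.92 ± 0.16 and 0.64 ± 0.12, and the protease Lonp1 by 0.66 ± 0.08.

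**Figure D3:**
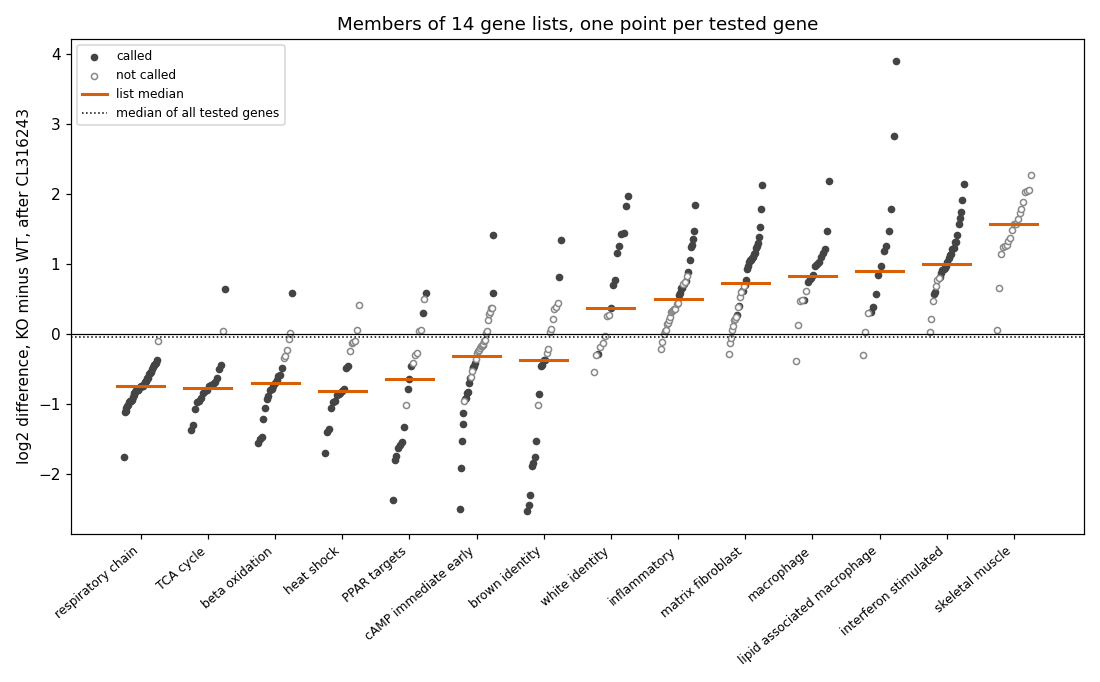
Log2 difference, KO minus WT, after CL316243 (vertical axis) of every tested member of 14 gene lists, with filled points called at an adjusted p under 0.05, open points not called, an orange bar at the list median and a dotted line at the median of all tested genes. Nearly all respiratory chain and TCA cycle points are filled and below 0, and the skeletal muscle points are high but open.

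Carbohydrate and storage pathways changed at particular steps. Pdp2, the phosphatase that switches pyruvate dehydrogenase on, was at 7.48, 7.71 and 7.89 in KO tissue, against 9.92, 10.05 and 10.22 in WT tissue, 5.17-fold higher in WT tissue (-2.37 ± 0.16, limma adjusted p = 1.13e-05). The phosphofructokinases Pfkl (-1.15 ± 0.13) and Pfkp (-0.97 ± 0.09) and the lactate dehydrogenase subunit Ldhb (-1.43 ± 0.22) fell, and 11 of 33 genes of glucose use were lower and 1 higher. The glucose transporter Slc2a1 was not called (-0.29 ± 0.14, limma adjusted p = 0.126), but was without WT array 3 (-0.41, adjusted p = 0.0491), and its difference was -0.15 without WT array 1. Of 17 genes of triglyceride synthesis and glycerol handling, 6 were lower and 1 higher. The mitochondrial glycerol phosphate dehydrogenase Gpd2 (-1.71 ± 0.14) and the acyltransferase Gpat4 (-0.98 ± 0.14) fell. Breakdown of branched-chain amino acids had 6 of 19 lower and 1 higher, with the dehydrogenase subunits Bckdha (-0.58 ± 0.10) and Dbt (-0.50 ± 0.11).

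Of 22 fatty acid synthesis genes 3 were called higher and 3 lower, counts near the shares of all tested genes (14.7% and 14.8%). The median difference of the list was 0.28, against -0.04 for all tested genes, and 2 to 6 were higher with 1 array left out. The synthase Fasn had 11.62, 11.94 and 11.65 in KO tissue, against 10.88, 11.31 and 10.50 in WT tissue, without overlap (0.84 ± 0.29), and was not called (limma adjusted p = 0.0512). It was called with only these 6 arrays (0.0253, where 9 genes of the list were higher), after quantile normalization (0.0298), with the 50th percentile filter (0.0454), with the replicate block (0.0429) and without WT array 2 (0.0379), KO saline array 1 or 2, or WT saline array 1 or 3 (0.0321 to 0.0490). Fasn was not called without any 1 of the KO arrays, WT array 1 or WT array 3 (limma adjusted p from 0.0827 to 0.168). Scd1, the stearoyl-CoA desaturase, overlapped between the groups (-0.02 ± 0.10, adjusted p = 0.892). Among 19 cholesterol synthesis genes 5 were higher and 2 lower, and 2 or 3 were higher without KO array 2, KO array 3 or WT array 3. The demethylase Cyp51 was at 7.73, 8.14 and 8.07 in KO tissue, against 7.12, 7.11 and 6.80 in WT tissue (0.97 ± 0.17).

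Genes typical of white adipocytes were more often higher than lower. Retn, the adipokine resistin, was at 10.70, 10.23 and 10.29 in KO tissue, against 8.33, 8.38 and 8.61 in WT tissue, 3.91-fold higher in KO tissue (1.97 ± 0.20, limma adjusted p = 0.000141). Slc7a10, an amino acid transporter of white adipocytes, had 9.50, 9.23 and 9.18 in KO tissue, against 7.09, 7.68 and 7.63 in WT tissue (1.84 ± 0.19). The synuclein Sncg rose by 1.44 ± 0.17. Of 17 white adipocyte genes 9 were higher and 1 was lower, with a median of 0.37. The hormones leptin (Lep, 0.77 ± 0.18) and adiponectin (Adipoq, 0.67 ± 0.11) rose, and it is the promoter of Adipoq that drives Cre in the knockouts. Insulin-like growth factor Igf1 (9.45, 9.44 and 9.20 in KO tissue, 7.81, 8.04 and 7.90 in WT tissue) rose by 1.45 ± 0.13. Vegfa, the angiogenic factor, had 10.12, 9.67 and 9.69 in KO tissue, against 10.34, 10.35 and 10.34 in WT tissue (-0.52 ± 0.16, adjusted p = 0.0298), a call that ended without any one of KO arrays 2 and 3 and the 3 WT arrays, with adjusted p from 0.0569 to 0.104.

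Stress pathways other than the chaperones were mixed. Of 30 integrated stress response genes 8 were higher (26.7%) and 6 lower (20%), against 14.7% and 14.8% of all tested genes. Without KO array 1 or WT array 1, 5 were higher. The alanine aminotransferase Gpt2 (1.35 ± 0.20) and the glutathione-degrading enzyme Chac1 (0.82 ± 0.20) rose, while Ppp1r15a, the subunit that reverses the response, fell by 0.92 ± 0.22. The letters TGATGCAA, an ATF4 composite element, stood in 5 of 27 promoters of this list (18.5%), against 1.03% of all. They also stood in 2 of 30 cAMP-list promoters (6.67%), 1 of 17 PPAR target promoters (5.88%) and 1 of 17 β-oxidation promoters (5.88%). Endoplasmic reticulum stress genes gave 4 higher and 2 lower of 23, near or below the shares of all tested genes (14.7% higher and 14.8% lower). Xbp1, a regulator of secretion, was at 10.14, 10.00 and 9.82 in KO tissue, against 9.04, 9.14 and 8.97 in WT tissue (0.94 ± 0.09). Antioxidant genes gave 6 higher (24%) and 4 lower (16%) of 25, and 2 or 3 higher without KO array 1, KO array 2 or WT array 3. The lower count is near the 14.8% of all tested genes. The mitochondrial dismutase Sod2 fell by 0.84 ± 0.16, and the heme oxygenase Hmox1 was not called (0.30 ± 0.21, limma adjusted p = 0.290). Among 17 clock genes 5 were lower and 1 higher, with 2 or 3 lower without KO array 2, KO array 3, WT array 2 or WT array 3. The activator Arntl fell by 0.87 ± 0.13 and the repressor Bhlhe41 rose by 1.07 ± 0.16.

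**Figure D4:**
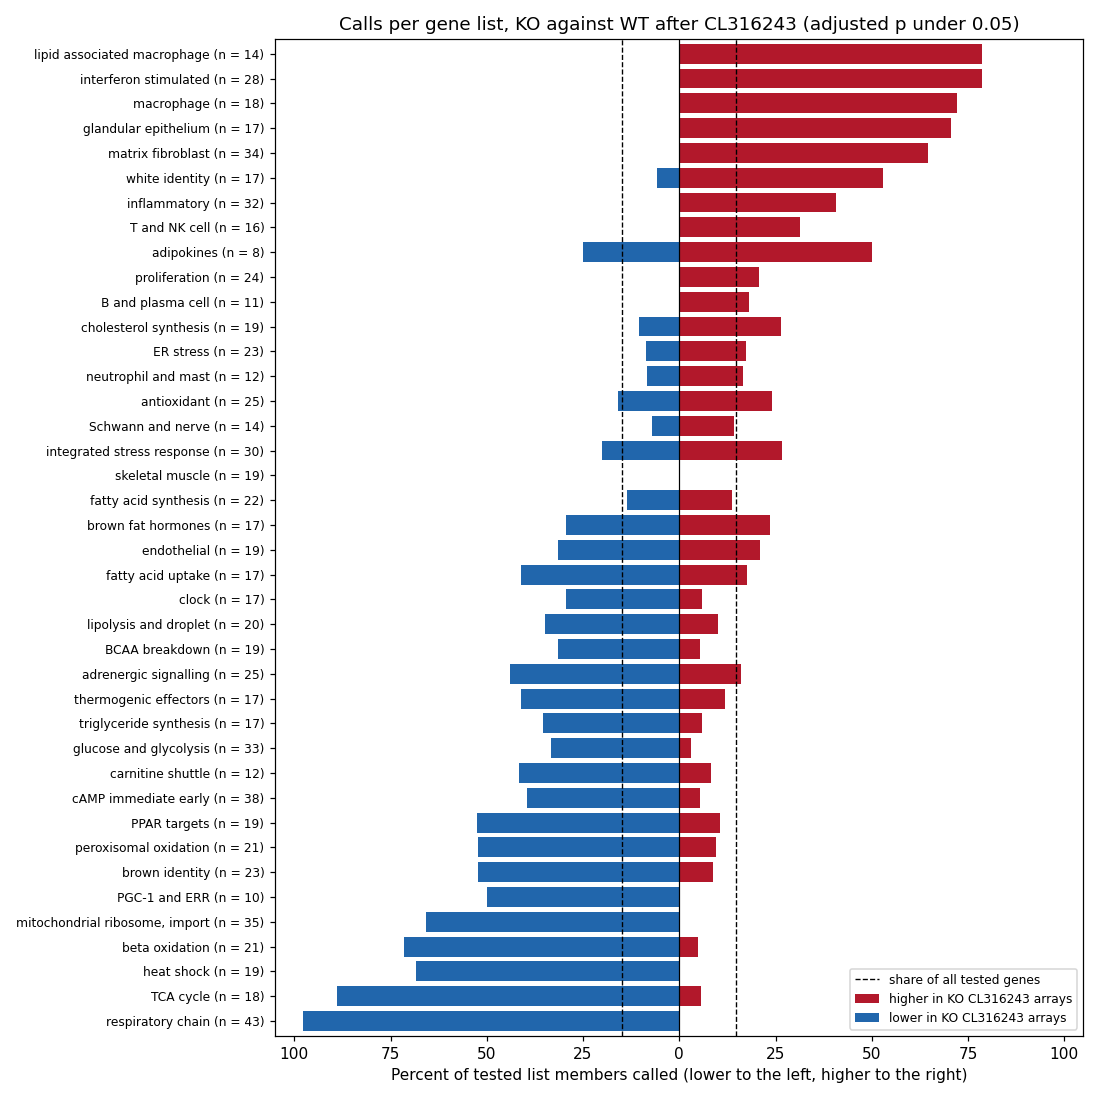
Percent of the tested members of each gene list called higher (right, red) or lower (left, blue) in KO than in WT tissue after CL316243, for lists with at least 5 tested genes; dashed lines give the shares of all tested genes, 14.7% and 14.8%. The respiratory chain, TCA cycle, β-oxidation and heat shock lists reach furthest to the left, and the interferon, lipid-associated macrophage, macrophage, glandular epithelium and matrix lists furthest to the right.

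Interferon-stimulated genes were higher almost as a body. Ifit3, which acts against viral RNA, was at 11.00, 10.30 and 9.45 in KO tissue, against 8.61, 7.75 and 7.96 in WT tissue, 4.42-fold higher in KO tissue (2.14 ± 0.38, limma adjusted p = 0.00212). Its relative Ifit1 had 9.85, 9.83 and 9.06 in KO tissue, against 8.08, 7.70 and 7.19 in WT tissue (1.92 ± 0.40). Usp18, which restrains interferon receptor signalling, rose by 1.67 ± 0.26, and the antiviral GTPase Mx1 rose by 1.75 ± 0.37, with 2 of 3 WT arrays below the floor. Of 28 tested genes 22 were higher and none was lower, with a median of 0.999. Without KO array 1 there were 12 and without WT array 2 there were 14. KO array 3 was the lowest KO array for the 4 genes named.

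The promoters of Ifit1 and Ifit3 are shown because the letters of the interferon-stimulated response element recur in them. The lines give 250 bases before the start on the plus strand, from RefSeq on build GRCm38.p6, at chr19:34640639-34640888 for Ifit1 and chr19:34583279-34583528 for Ifit3, and capitals mark matches to GAAA, any 2 bases and GAAAC, on either strand.
Ifit1: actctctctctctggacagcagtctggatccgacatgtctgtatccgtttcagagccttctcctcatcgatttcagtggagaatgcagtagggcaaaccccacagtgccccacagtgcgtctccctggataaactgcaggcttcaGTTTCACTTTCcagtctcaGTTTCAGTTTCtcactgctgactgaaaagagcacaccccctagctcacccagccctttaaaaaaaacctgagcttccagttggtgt
Ifit3: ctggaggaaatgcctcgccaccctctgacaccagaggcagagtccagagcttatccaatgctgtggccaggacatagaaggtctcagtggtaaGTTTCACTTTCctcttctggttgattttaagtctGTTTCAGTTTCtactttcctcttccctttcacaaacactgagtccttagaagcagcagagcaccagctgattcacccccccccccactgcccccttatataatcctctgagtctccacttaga
Each holds 2 matches. Over both strands and windows from 250 bases before to 50 after the start, the motif stood in 11 of the 23 promoters of this list in the table (47.8%), against 0.944% of all 27025. The motif also stood in 1 of 30 cAMP-list promoters (3.33%), and it was chosen after the values were seen.

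Most macrophage markers rose, those of lipid-handling macrophages among them. Gpnmb, a glycoprotein of lipid-laden macrophages, was at 10.84, 10.97 and 10.39 in KO tissue, against 7.10, 6.55 and 6.84 in WT tissue, 14.9-fold higher in KO tissue (3.90 ± 0.17, limma adjusted p = 1.43e-06). Atp6v0d2, a subunit of the lysosomal proton pump, had 9.05, 9.44 and 8.84 in KO tissue, against 6.63, 6.05 and 6.14 in WT tissue (2.84 ± 0.18). Trem2, a lipid receptor of these cells, rose by 1.47 ± 0.16 and the elastase Mmp12 by 1.78 ± 0.24. Of 14 markers of lipid-associated macrophages 11 were higher and none was lower. General macrophage markers were higher in 13 of 18 cases and lower in none, for example Cd68 (1.22 ± 0.12), Mpeg1 (2.19 ± 0.23), the mannose receptor Mrc1 (1.16 ± 0.19) and the adhesion receptor Adgre1 (1.11 ± 0.25). The co-receptor for lipopolysaccharide Cd14 rose by 1.47 ± 0.15, or by 0.82 when the mean of its rows was taken.

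Inflammatory genes were higher in 13 of 32 cases and lower in none, with a median of 0.51, and 5 were higher without KO array 2 and 8 without KO array 3 or WT array 2. Lcn2, a lipocalin released by adipocytes and neutrophils, had 10.13, 8.84 and 9.80 in KO tissue, against 7.60, 7.79 and 7.84 in WT tissue (1.85 ± 0.40), and the chemokine Ccl3 rose by 1.27 ± 0.23. Ccl2, the monocyte chemokine, was at 9.01, 10.15 and 9.99 in KO tissue, against 9.43, 8.98 and 8.50 in WT tissue, which overlap (limma adjusted p = 0.189). The macrophage markers moved with these genes, and their part in the result was not tested. Il7r, the interleukin-7 receptor of lymphocytes, rose by 2.46 ± 0.36 (9.20, 10.46 and 9.51 in KO tissue, 7.78, 7.10 and 6.92 in WT tissue). Markers of T and natural killer cells were higher in 5 of 16 cases, and in 1 or 2 without KO array 2, KO array 3, WT array 2 or WT array 3. KO array 2 had the highest mean level of these markers, 6.94, against 5.96 and 6.40 in the other KO arrays and 5.65 to 5.80 in WT tissue.

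Matrix and fibroblast genes were higher in 22 of 34 cases and lower in none, with a median of 0.74. Col15a1, a basement membrane collagen, was at 10.37, 10.29 and 10.11 in KO tissue, against 8.41, 8.52 and 8.50 in WT tissue, 3.44-fold higher in KO tissue (1.78 ± 0.10, limma adjusted p = 2.55e-06), Col3a1 rose by 1.39 ± 0.23 and Col1a1 by 1.14 ± 0.19. The protease Mmp3 had 9.50, 9.17 and 9.01 in KO tissue, against 7.03, 7.21 and 7.07 in WT tissue (2.12 ± 0.21), and thrombospondin Thbs1 rose by 1.53 ± 0.36. Of 24 proliferation genes 5 were higher (20.8%, against 14.7% of all tested genes) and none was lower. Without KO array 1, KO array 2, WT array 2 or WT array 3, 2 or 3 were higher. The replication helicase subunit Mcm6 rose by 0.81 ± 0.13.

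Several of the largest rises belonged to epithelial genes. Krt8, a keratin of simple epithelia, was at 9.77, 8.68 and 9.92 in KO tissue, against 6.80, 6.93 and 7.28 in WT tissue, 5.47-fold higher in KO tissue (2.45 ± 0.37, limma adjusted p = 0.000987). Krt19 (2.33 ± 0.35), the adhesion molecule Epcam (1.83 ± 0.30) and the milk protein gene Csn3 (2.95 ± 0.38) rose, and 12 of 17 glandular epithelium genes were higher and none lower. Serpinb5 (2.86 ± 0.44), Muc4 (2.72 ± 0.45), Cxcl15 (2.68 ± 0.39) and Ly6d (2.58 ± 0.39) were also among the 12 largest rises. KO array 2 was the lowest KO array for Krt8, Krt19, Epcam, Csn3, Muc4, Cxcl15 and Ly6d. All WT arrays of Csn3 and Serpinb5 and 1 each of Muc4 and Cxcl15 lay below the floor, so the sizes of these rises are uncertain. The list spans several glands, and its milk casein gene Csn2, its secretory gene Pip, its salivary gland gene Bpifa2 and the parathyroid hormone gene Pth were below the floor on all 12 arrays. The summed linear signal of all genes of the list was 2320 to 3547 in KO arrays, against 1115 to 1413 in WT arrays. How far epithelial cells in the dissected tissue shaped other results was not tested.

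The remaining large rises were less steady. Catspere2, a sperm channel gene, had 6.93, 8.76 and 7.69 in KO tissue, against 3.59, 4.08 and 3.35 in WT tissue, all WT arrays being below the floor (4.12 ± 0.72, and 1.42 when the mean of its rows was taken). An immunoglobulin light chain variable gene (3.01 ± 0.96) was at 9.11 in KO array 2, against 6.18 and 5.96 in the other KO arrays and below the floor in all 3 WT arrays, so the size is uncertain, and lost its call without it (2.00, limma adjusted p = 0.126). It also lost the call without any one WT array (adjusted p from 0.0721 to 0.0795). Muc15 (2.45 ± 0.70, adjusted p = 0.0226) lost its call without KO array 1, KO array 2 or WT array 2 (adjusted p from 0.0598 to 0.0779), and all 3 of its WT arrays lay below the floor.

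Skeletal muscle genes had the highest median of all lists, 1.58, and no call, since muscle signal varied among mice of both groups. Acta1, skeletal actin, was at 10.39, 9.27 and 10.45 in KO tissue, against 7.75, 9.75 and 8.86 in WT tissue (1.25 ± 0.99, limma adjusted p = 0.350, and 0.73 without WT array 1). Endothelial genes were lower in 6 of 19 cases and higher in 4, with 1 or 2 higher when 1 array of the compared groups other than KO array 2 was left out. Kdr, the main receptor for Vegfa, was at 9.49, 9.03 and 9.20 in KO tissue, against 9.87, 9.79 and 9.83 in WT tissue (-0.59 ± 0.11). Nerve and Schwann cell genes gave 2 higher and 1 lower of 14, the glial adhesion gene Cdh19 rising by 0.97 ± 0.21 and the calcium-binding protein gene S100b falling by 0.77 ± 0.13. B cell genes gave 2 higher of 11, and neutrophil and mast cell genes 2 higher and 1 lower of 12. The counts of the nerve, B cell, and neutrophil and mast cell lists are near or below the shares of all tested genes, 14.7% higher and 14.8% lower. Erythroid genes gave 3 lower of 4, of which 1 was lower without KO array 1 or KO array 2.

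The saline arrays come from other mice and share no array with the comparison above, though the fit estimates 1 spread for all. After saline 1849 genes (11.6%) were called between KO and WT tissue, 865 higher (5.44%) and 984 lower (6.19%). Of the 4685 genes called after CL316243, 1236 (26.4%) were called in the same direction after saline, which is 66.8% of the saline calls. These were 654 genes higher and 582 lower after both injections. A test of the difference of the knockout effects, CL316243 minus saline, called 324 genes (2.04%), 123 higher (0.774%) and 201 lower (1.26%). Of the CL316243 calls, 306 (6.53%) had such a difference, and for the others it was not shown.

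**Figure D5:**
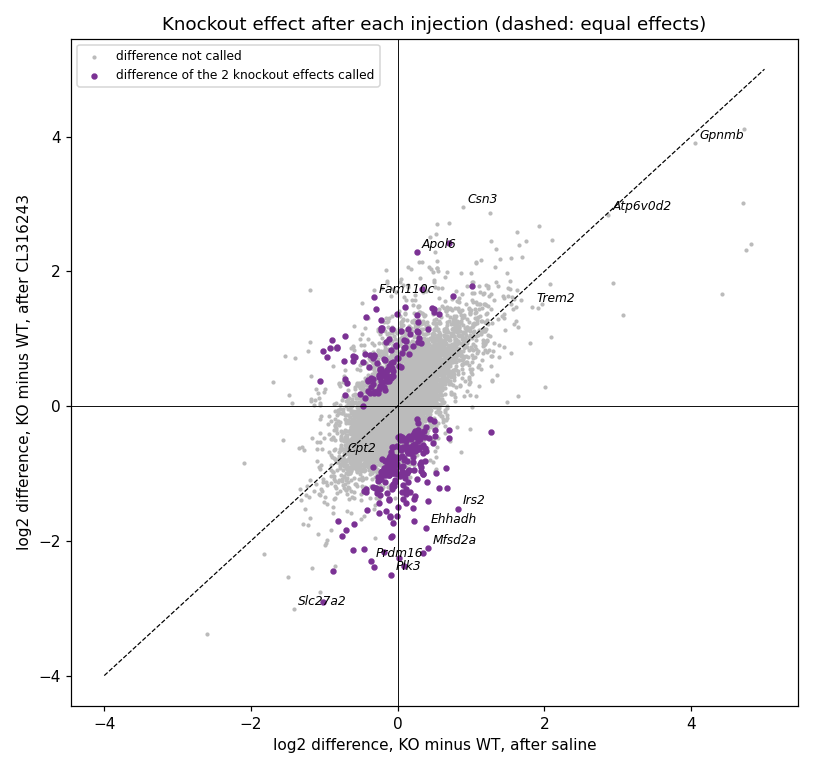
Knockout effect after CL316243 (vertical axis) against that after saline (horizontal axis), both log2 KO minus WT, with 1 point per tested gene and purple points for the 324 genes whose difference of effects was called. Gpnmb and Atp6v0d2 lie near the dashed line of equal effects at the upper right, while Plk3, Prdm16, Mfsd2a and Irs2 lie near or right of 0 on the horizontal axis and far below it.

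The macrophage, matrix and respiratory chain lists also had calls after saline. Gpnmb was at 10.96, 10.72 and 10.83 in KO saline tissue, against 6.90, 6.86 and 6.59 in WT saline tissue (4.06 ± 0.17), and its effects after the 2 injections differed by -0.16 ± 0.24 (limma adjusted p = 0.821). For Trem2 the effect after saline was 1.83 ± 0.16 and for Col1a1 1.17 ± 0.19. General macrophage markers were higher after saline in 10 of 18 cases, but in 3 without KO saline array 1, KO saline array 3 or WT saline array 1. Among lipid-associated macrophage markers 12 of 14 were higher after saline (8 to 12 with 1 array left out), and among matrix genes 20 of 34 (13 to 22). Respiratory chain genes were lower after saline in 33 of 43 cases, although without KO saline array 3 only 7 were called. No gene of the respiratory chain, the TCA cycle or β-oxidation had a called difference between the injections. This is near the share of all tested genes, 2.04%, so it sets these lists apart from no others.

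Some genes of other groups had a called difference between the injections, as did 2.04% of all tested genes. Of the heat shock genes none was called after saline, and 4 of 19 had a called difference, none of them without KO array 3 or WT array 2 of the CL316243 groups. The cAMP list had 7 of 38 genes with a lower and 1 with a higher knockout effect after CL316243 than after saline (4 to 11 lower with 1 array left out). Ffar4, a receptor for long-chain fatty acids, was at 6.93, 6.79 and 6.86 in KO and 8.82, 9.15 and 9.15 in WT tissue after CL316243, and at 7.39, 7.33 and 6.92 in KO and 6.94, 7.04 and 6.63 in WT tissue after saline. The difference of the effects was -2.52 ± 0.21 (limma adjusted p = 0.000226). Dagla, an enzyme of endocannabinoid synthesis, had 8.23, 8.01 and 8.05 in KO and 10.34, 10.59 and 10.52 in WT tissue after CL316243, and 8.01, 7.92 and 7.88 in KO and 8.39, 8.34 and 8.03 in WT tissue after saline (-2.07 ± 0.16, adjusted p = 0.000183). Prdm16 had a difference of -1.95 ± 0.16, Pdp2 of -2.45 ± 0.22, Mfsd2a of -2.52 ± 0.31, Plk3 of -2.41 ± 0.28 and Irs2 of -2.35 ± 0.38. In the other direction, the apolipoprotein L gene Apol6 was at 10.29, 10.06 and 9.98 in KO and 7.78, 8.33 and 7.39 in WT tissue after CL316243, and overlapped after saline (2.02 ± 0.33, adjusted p = 0.0143).

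Interferon genes were higher in KO tissue in 5 of 28 cases after saline (1 to 7 with 1 array left out) and lower in 1. Of all tested genes, 5.44% were higher and 6.19% lower after saline. A called difference was found for 1 of the 28, against 2.04% of all tested genes, and for none without WT CL316243 array 2. Inflammatory genes were higher in none and lower in 6 of 32 cases after saline, and none of them was called without KO saline array 1 or WT saline array 1. For Ccl2 the effect was -1.54 after saline (limma adjusted p = 0.0376) and 0.75 after CL316243, and the difference of 2.28 was not called (adjusted p = 0.0742).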

How the data were processed

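RNA of 12 brown fat samples, 4 groups of 3, had been hybridised to Affymetrix mouse exon arrays, 1 array per mouse. The authors deposited log2 values made with RMA in Partek on build mm9, per the submitters' processing notes, with no versions. RMA forces arrays to a common distribution, so a global shift in RNA would not show. Of 115830 rows, the platform's gene table listed 27839, and 25539 had 1 gene, giving 20259 genes; the 2300 rows with several genes and the 87991 not listed were left out. For a gene with several rows, the row with the highest mean over the 12 arrays was used. Genes above the 25th percentile of an array in at least 3 arrays were kept, which left 15896. Limma 3.58.1 in R 4.3.3 fitted 1 mean per group over all 12 arrays and tested KO minus WT after CL316243, the same after saline, and the difference of both, with Benjamini-Hochberg adjustment and a threshold of 0.05. The fit was tested on simulated data. Array number, 3 per group, limits the precision.

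Gene lists (41, with 923 genes, of which 826 had a row of their own) and tests were chosen with earlier results of these data known. Named genes are the 12 largest rises and falls among calls without overlap, up to 4 called members per list, a panel of 34 genes, and the 5 largest differences of effect each way; those outside the rule are said to be so. Of the panel, Adrb3, Gdf15, Lipe and Il6 were not tested. Alternatives were rescaling, other filters, the mean of a gene's rows, other moderation, only the groups compared, the replicate number as a block, stricter thresholds and each array left out. Promoter sequences came from RefSeq (GRCm38.p6). Python 3.11.15, pandas 2.3.3 and matplotlib 3.10.9 were used for tables and figures.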

Additional observations from a re-analysis of the deposited data

Results flagged for a closer look

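For 35 of the named genes the knockout effect differed between the injections by limma's test of the difference itself (CL316243 minus saline, log2, adjusted p under 0.05). For 17 of them the difference was called with each of the 12 arrays left out in turn. Among these, the difference was -2.52 for Ffar4 and -2.52 for Mfsd2a, -2.45 for Pdp2, -2.41 for Plk3, -2.35 for Irs2, -2.20 for Ehhadh, -2.07 for Dagla, -1.95 for Prdm16, -1.84 for Nr4a2, -1.63 for Acot3, -1.57 for Acot4, -1.53 for Atf3, -1.15 for Adcy3 and -1.12 for Acot2. It was 2.02 for Apol6, 1.94 for Fam110c and 1.36 for Cd14. Fam110c was above the expression floor in 1 of 3 KO and 2 of 3 WT saline arrays.

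The other 18 lost the call without at least 1 array, and many of them without most of the 12. The call ended with 11 of the arrays, each left out alone, for Gpat4, Xbp1, Dnajb9 and Sox17. It ended with 10 for Pank1 and Mt2, with 9 for Ppargc1a, Crat, Gpd2 and Ccl3, and with 8 for Ccl12. For Aqp7 and Serpinb10 it ended with 7, for Elovl3 and Col15a1 with 3, for Hsph1 with 2, and for Pfkp and Gbp2 with 1. The difference was -1.89 for Elovl3, -1.57 for Pank1, -1.54 for Ppargc1a, -1.27 for Hsph1, -0.956 for Dnajb9, -0.900 for Gpd2, -0.894 for Gpat4, -0.842 for Aqp7, -0.836 for Crat, -0.836 for Sox17 and -0.756 for Pfkp. It was 1.87 for Ccl12, 1.83 for Gbp2, 1.78 for Serpinb10, 1.5 for Ccl3, 1.35 for Mt2, 0.769 for Col15a1 and 0.618 for Xbp1.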

How the results depend on the processing

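The main fit called 2329 genes higher and 2356 lower in KO than in WT tissue after CL316243. An adjusted p under 0.01 left 1177 higher and 1078 lower, a 2-fold minimum left 363 and 199, and leaving out 1 array gave 1693 to 2360 higher and 1532 to 2522 lower (1561 lower without KO array 1, 1532 without KO array 2). Median-centring gave 1927 higher and 3478 lower. After saline, 1849 genes were called, against 604 with only the saline groups fitted, 418 at an adjusted p under 0.01, 199 at 2-fold and 581 to 2458 with 1 array left out (636 without KO saline array 1, 581 without KO saline array 3, 639 without WT saline array 1, 1161 without WT saline array 2). The difference of effects had 324 calls, against 497 with the 50th percentile filter, 52 at an adjusted p under 0.01, 119 at 2-fold and 128 to 399 with 1 array left out (CL316243 arrays: 158 without KO 2, 129 without KO 3, 128 without WT 2; saline arrays: 180 without KO 2, 175 without KO 3, 184 without WT 1, 181 without WT 3). The 2-group fit and the left-out arrays use fewer samples by construction; for the other settings the cause was not tested. Cpt2 stayed lower and called at an adjusted p under 0.05 in each alternative fit, from -0.82 to -0.66, which is less than 2-fold. Scd1, not called at -0.02, was 0.030 without KO array 3 and 0.032 without WT array 2, and ranged from -0.088 to 0.032 with 1 array left out; the cause was not tested. Sox17 was -0.24 and Slc4a1 -0.25 with the mean of a gene's rows. Ucp1 was called after median-centring (limma adjusted p = 0.0420), with the 50th percentile filter (0.0456), with the mean of rows (0.0499), with trended moderation (0.0498) and with the replicate block (0.0349). It was not called after quantile normalization (0.0728), with robust moderation (0.0773), with no filter (0.0564) or without any 1 of the CL316243 arrays (0.0669 to 0.159). With the replicate block, 2319 genes were higher, 2404 lower, 1758 called after saline and 292 in the difference. Deviations of same-numbered arrays from their group means correlated from -0.298 to 0.476. With 3 arrays per group these values cannot show whether the numbers pair the mice, and the labels do not say. Of the 180 named genes, 130 kept their call at an adjusted p under 0.05 in each alternative fit, 39 lost it at least once and 10 were not called, with Cpt2 counted apart. The stricter thresholds were applied to the counts over all genes only, not to single genes. Counts of 4 or fewer per list often moved by over 1.5 times with 1 array left out.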
